A study of Rattus norvegicus with 6 samples.

Results

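The genes described here are 34 genes of cholesterol and lipid synthesis, of its control by the sterol regulatory element-binding proteins (SREBPs), and of sterol transport. They were listed by gene name with earlier results of these data known. The cells were heart muscle cells of newborn rats, kept in culture. The list holds 18 enzymes of sterol synthesis, 8 enzymes that make, lengthen or desaturate fatty acids, 5 regulators of SREBP processing, 2 sterol transport genes and Lpin1, a gene of glycerolipid synthesis. A gene was represented by the probe set of that gene symbol with the highest mean over the 6 arrays, which gave 33 of the 34 genes out of 14217 genes with a probe set of that symbol alone. For Hmgcs1 the annotation used here names no probe set, so it has no value below.

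Cells were isolated from hearts of Wistar rats aged 1 to 2 days and passed over a Percoll gradient meant to remove fibroblasts. They were measured on 6 single-channel Affymetrix arrays, 2 for each of 3 groups. Stretched cells had grown for 36 h on a collagen-coated silicone membrane and then for 24 h without serum before a biaxial stretch to 112% for 24 h. The phenylephrine group received 50 µmol/l of phenylephrine, an agonist of the alpha-adrenergic receptor that drives growth of cultured heart muscle cells, and the control group was untreated. The treatment protocol of the phenylephrine arrays also lists endothelin-1 and angiotensin II as stimuli of the study, while the titles of these arrays name phenylephrine alone. For the phenylephrine and control cells, the sources used here give neither the growth surface nor a time without serum, and for phenylephrine no length of treatment. RNA was pooled from more than 1 preparation, and no label states whether arrays of 1 group stem from different cultures, so a p-value here measures the spread between these 6 arrays alone, and that spread may be technical.

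SREBPs are transcription factors made as precursors in the endoplasmic reticulum. When sterols are low, the escort protein SCAP carries them to the Golgi, where they are cut, and the released part enters the nucleus and turns on genes of sterol and fatty acid synthesis. When sterols are high, INSIG proteins hold SCAP back. SREBP-2, from Srebf2, acts mainly on the sterol genes, and SREBP-1, from Srebf1, mainly on the fatty acid genes. In the heart muscle cell, new membrane and its cholesterol come from this pathway and from uptake, while fatty acids serve mostly as fuel.

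Values are log2 signals as the authors deposited them. Changes are differences of group means from a limma fit over all 6 arrays, given with the standard error (SE), and p-values are adjusted by the Benjamini-Hochberg method over 31042 probe sets with a threshold of 0.05. Confidence intervals are at 95% and n = 2 arrays per group throughout. The medians of the 6 arrays lay between 8.30 and 8.33 log2. Phenylephrine replicate 2 stood apart in the hybridization controls, whose median was 9.31 log2 there against 10.1 to 10.4 on the other 5 arrays. The signal of the 3′ minus that of the 5′ control probe set of Gapdh, a sign of RNA quality, was 0.36 and 0.48 log2 on the stretch arrays, 0.25 and 0.30 on the phenylephrine arrays and 0.36 and 0.59 on the control arrays. It was thus lower with phenylephrine than in control without overlap, and its part in the results was not tested. Heart muscle markers were bright on all arrays, with Tnnt2, the cardiac troponin T gene, between 14.48 and 14.81 log2. The fibroblast marker Col1a1 was bright too, at 11.75 to 12.44 log2, a mean level at the 94.2 percentile of all 14217 genes. Col3a1, another fibroblast marker, was at the 97.6 percentile, so fibroblast transcripts remained in the RNA after the gradient. In RNA of mixed cells, fewer cells of a type and less RNA per cell cannot be told apart.

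SREBPs bind promoters together with the factor NF-Y, whose box is CCAAT. Promoter windows of rat RefSeq genes (assembly GRCr8), from 250 bases before to 50 bases after the gene start, were held for 27 of the 34 genes, in 28 windows since Srebf1 has 2. Both strands were searched for TCACNCCAC, a core of the sterol regulatory element, for CCAAT and for the E-box CACGTG. Of these, CCAAT was found in 22 of the 28 windows (78.6%), against 37.5% of 33469 windows of all genes. CACGTG was found in 5 windows, those of Elovl5, Insig1, Sc5d, Scap and Abca1 (17.9%, against 6.42% of all windows). TCACNCCAC was in 0 of the 28 windows, against 1.12% of all windows, which says only that these letters are not in them. The stretch before the start is shown for 4 sterol enzyme genes and the fatty acid gene Elovl5, which were the strongest rises with phenylephrine that had windows apart from Acat2, and for Abca1, which fell. Each is 250 bases from 5′ to 3′ on the strand of its gene, with CCAAT on either strand (ATTGG where it lies on the other strand) and CACGTG in capitals.
Idi1, chr17:66547525-66547774, minus strand: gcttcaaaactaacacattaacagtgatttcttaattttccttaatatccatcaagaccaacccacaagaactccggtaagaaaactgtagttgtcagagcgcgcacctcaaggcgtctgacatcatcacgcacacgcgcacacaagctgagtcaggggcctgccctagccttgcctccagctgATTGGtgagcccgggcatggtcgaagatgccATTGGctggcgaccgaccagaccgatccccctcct
Dhcr7, chr1:208444184-208444433, plus strand: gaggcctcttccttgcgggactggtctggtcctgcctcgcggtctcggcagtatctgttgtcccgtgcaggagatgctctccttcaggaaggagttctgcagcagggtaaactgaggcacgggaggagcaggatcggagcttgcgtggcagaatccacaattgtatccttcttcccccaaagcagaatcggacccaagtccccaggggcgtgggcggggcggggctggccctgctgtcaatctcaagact
Fdps, chr2:176804817-176805066, minus strand: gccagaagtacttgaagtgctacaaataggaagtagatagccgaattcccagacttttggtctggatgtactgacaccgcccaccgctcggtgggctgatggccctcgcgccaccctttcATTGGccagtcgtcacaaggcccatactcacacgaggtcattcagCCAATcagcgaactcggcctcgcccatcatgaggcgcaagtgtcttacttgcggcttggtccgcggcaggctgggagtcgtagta
Msmo1, chr16:29746863-29747112, plus strand: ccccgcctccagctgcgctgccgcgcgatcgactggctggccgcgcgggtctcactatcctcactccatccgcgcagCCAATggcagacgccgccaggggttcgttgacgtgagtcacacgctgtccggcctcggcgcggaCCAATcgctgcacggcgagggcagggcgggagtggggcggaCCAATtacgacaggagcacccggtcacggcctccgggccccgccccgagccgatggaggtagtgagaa
Elovl5, chr8:87670914-87671163, plus strand: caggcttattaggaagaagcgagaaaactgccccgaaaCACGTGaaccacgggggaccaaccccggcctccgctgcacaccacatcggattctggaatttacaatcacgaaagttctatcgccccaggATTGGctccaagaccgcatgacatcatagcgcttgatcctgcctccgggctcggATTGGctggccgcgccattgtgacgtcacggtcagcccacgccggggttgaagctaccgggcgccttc
Abca1, chr5:72596474-72596723, minus strand: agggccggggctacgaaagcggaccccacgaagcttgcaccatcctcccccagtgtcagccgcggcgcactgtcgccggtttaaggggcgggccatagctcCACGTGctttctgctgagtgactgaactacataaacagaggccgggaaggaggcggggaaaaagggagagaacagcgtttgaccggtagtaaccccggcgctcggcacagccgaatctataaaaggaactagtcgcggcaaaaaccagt
Idi1 and Fdps hold 2 CCAAT boxes each before the start and Msmo1 holds 3, while Dhcr7 holds none. Among sterol enzymes with a window, CCAAT was in 5 of the 8 that rose with phenylephrine and in 6 of the 6 measured ones that did not pass.

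Most sterol enzymes rose with phenylephrine. Of 17 measured sterol enzymes, 10 rose, 0 fell and 7 did not pass the test in phenylephrine cells against control. The rises ran from the first step to the last: Acat2, Idi1, Fdps, Fdft1, Sqle, Cyp51, Msmo1, Nsdhl, Hsd17b7 and Dhcr7. Among all probe sets 3.60% were called in this comparison, and among the 14217 genes 2.41% were called higher. The median change of the 17 was 0.73 log2, beside 0.0020 over all 14217 genes, and on every one of the 17 both phenylephrine arrays lay above both control arrays, which held for 22.0% of all genes.

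Idi1, the isomerase that makes the second building block of isoprenoids (probe set 1368878_at), had the largest change of the list. Its level was 12.63 and 12.19 log2 on the phenylephrine arrays, against 10.87 and 10.38 on the control arrays. The groups lay far apart although the control arrays differed from each other by more than those of most members. Idi1 rose 3.46-fold (1.79 ± 0.21, adjusted p = 0.00504), the 11th largest change upward of all 14217 genes. Its other probe set gave 1.71 ± 0.18, adjusted p = 0.00412.

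Among the early steps, Acat2, the cytosolic thiolase that joins the first acetyl units (probe set 1372462_at), was at 11.68 and 11.33 log2 with phenylephrine, against 10.37 and 10.19 in control. It rose 2.34-fold (1.23 ± 0.17, adjusted p = 0.0102). The 3 kinase and decarboxylase genes that follow did not pass. Mvk, mevalonate kinase, had a change of 0.18 ± 0.10, adjusted p = 0.445. For Pmvk, phosphomevalonate kinase, it was 0.51 ± 0.14, adjusted p = 0.0981, and for Mvd, the decarboxylase that makes isopentenyl diphosphate, 0.20 ± 0.10, adjusted p = 0.356. Both phenylephrine arrays of these 3 genes were nonetheless above both control arrays.

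Fdps, which makes farnesyl diphosphate, the branch point to prenylated proteins and sterols (probe set 1367667_at), was at 13.71 and 13.53 log2 with phenylephrine, against 12.66 and 12.39 in control. It rose 2.14-fold (1.10 ± 0.12, adjusted p = 0.00488). Fdft1, squalene synthase, the first enzyme committed to sterols, was at 11.68 and 11.38 log2, against 10.79 and 10.82 in control, and rose 1.65-fold (0.73 ± 0.14, adjusted p = 0.0341). Sqle, squalene epoxidase, a slow step of the pathway (probe set 1387017_at), was at 12.01 and 11.82 log2 with phenylephrine and at 10.86 and 10.75 in control. Its change was 2.16-fold upward (1.11 ± 0.13, adjusted p = 0.00488), so that 3 neighbouring steps rose together. Lss, which closes the squalene epoxide into lanosterol, stood next to them with 0.31 ± 0.092, adjusted p = 0.126, and did not pass.

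After lanosterol, the demethylation steps rose. Cyp51, the lanosterol demethylase, was at 12.93 and 12.90 log2 with phenylephrine, against 12.13 and 12.12 in control (0.79 ± 0.12, adjusted p = 0.0135). Msmo1, the methylsterol oxidase, was at 12.93 and 12.73 log2, against 11.91 and 11.64 in control (1.05 ± 0.14, adjusted p = 0.00861). Each of these genes had replicates closer to each other than to the other group. Nsdhl, the sterol dehydrogenase of the same complex, rose by less (0.57 ± 0.11, adjusted p = 0.0318), and the reductase gene Hsd17b7 by 0.96 ± 0.13, adjusted p = 0.0109. Tm7sf2, a sterol reductase, did not pass (0.33 ± 0.11, adjusted p = 0.156).

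The last steps were uneven. Dhcr7, the reductase that completes cholesterol (probe set 1368189_at), was at 11.02 and 10.86 log2 with phenylephrine and at 9.83 and 9.75 in control. It rose 2.22-fold and had the lowest adjusted p of the 33 genes (1.15 ± 0.11, adjusted p = 0.00356). Ebp, the sterol isomerase, did not pass, at 9.44 and 9.42 log2, against 9.37 and 9.33 in control, with an interval of -0.13 to 0.29 for the change. The desaturase gene Sc5d was just short of the threshold on its brightest probe set (0.73 ± 0.16, adjusted p = 0.0512), and passed on both of its others, 1 with 1.10 ± 0.11, adjusted p = 0.00392 and 1 with 0.68 ± 0.13, adjusted p = 0.029. Of 24 further probe sets of 19 members, all 24 had the sign of the brightest one in this comparison and 8 rose.

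**Figure D1:**
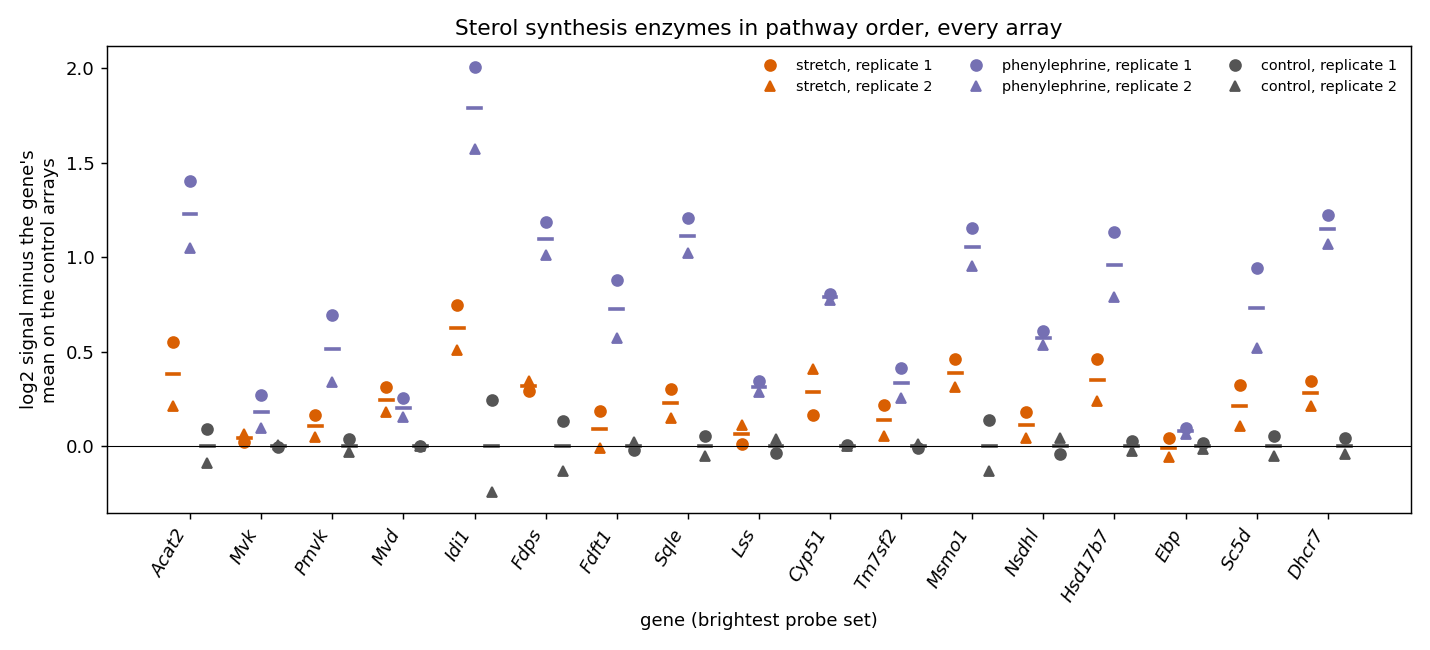
Log2 signal of 17 sterol enzymes in pathway order on every array, minus the gene's mean on the 2 control arrays (vertical axis, log2). Circles are replicate 1, triangles replicate 2 and short bars group means. Phenylephrine arrays lie above both control arrays for all 17 genes, with Idi1 highest at a mean of 1.79, and in 12 genes both stretch arrays lie between the other groups.

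The fatty acid arm had a smaller median change, 0.41 log2 against 0.73 for the sterol enzymes. Of 8 measured enzymes, 4 rose with phenylephrine (Fasn, Elovl5, Elovl6 and Fads2), 0 fell and 4 did not pass. Among all 14217 genes 2.41% were called higher. Elovl5, the elongase of polyunsaturated fatty acids (probe set 1388348_at), was at 11.46 and 11.18 log2 with phenylephrine, against 10.40 and 10.25 in control. It rose 1.99-fold (0.99 ± 0.14, adjusted p = 0.011), while its dimmer probe set gave 0.43 ± 0.12, adjusted p = 0.109. Fasn, the synthase that builds palmitate, was at 11.03 and 10.70 log2, against 10.22 and 10.18 in control, and rose 1.59-fold (0.66 ± 0.14, adjusted p = 0.0401). The phenylephrine arrays of Fasn differed from each other by far more than those of control.

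Elovl6, which lengthens palmitate to stearate, was at 9.12 and 9.12 log2 with phenylephrine, against 8.68 and 8.65 in control (0.46 ± 0.084, adjusted p = 0.0296). Fads2, a front-end desaturase, was at 8.67 and 8.79 log2, against 8.41 and 8.36 (0.35 ± 0.073, adjusted p = 0.0436). Its partner Fads1 had a larger change that did not pass (0.74 ± 0.17, adjusted p = 0.064), with phenylephrine arrays at 11.29 and 10.87 log2 and control arrays at 10.43 and 10.24. The 3 genes that supply the arm with its substrates did not pass. Acly, which makes cytosolic acetyl-CoA from citrate, had 0.37 ± 0.11, adjusted p = 0.15. Acss2, which makes it from acetate, was at 10.76 and 10.46 log2, against 10.81 and 10.57 in control, and the groups overlapped. Acaca, the carboxylase that makes malonyl-CoA, was at 9.95 and 9.71 log2, against 9.80 and 9.83, also with overlap, and its interval was -0.25 to 0.28.

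None of the 5 regulators passed with phenylephrine in the main fit, and Insig1 and Srebf2 had the lowest adjusted p among them. Insig1, itself an SREBP target and the inhibitor of SCAP transport, was at 11.62 and 11.72 log2, against 11.22 and 11.20 in control (0.47 ± 0.11, adjusted p = 0.0754). Srebf2 was at 11.01 and 10.87 log2, against 10.52 and 10.55 (0.40 ± 0.11, adjusted p = 0.105). Both phenylephrine arrays were above both control arrays in each gene. Srebf1 had 0.22 ± 0.10, adjusted p = 0.306, Insig2, the other INSIG gene, 0.27 ± 0.12, adjusted p = 0.334, and Scap -0.13 ± 0.10, adjusted p = 0.584. A limma fit with a replicate block called Insig1 (adjusted p = 0.0028), Srebf2 (0.00454), Insig2 (0.0317) and Srebf1 (0.0462) higher. That fit called 5384 of all probe sets, against 1117 in the main fit, and no label says that equal numbers mark a shared batch.

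Outside the enzymes, Abca1, the pump that exports cholesterol from the cell, fell with phenylephrine. It was at 8.71 and 8.52 log2, against 9.11 and 9.14 in control, 1.42-fold lower (-0.51 ± 0.089, adjusted p = 0.0249). Its 3 dimmer probe sets were also below control in mean and did not pass. Stard4, a carrier of sterol between membranes, was at 9.51 and 9.35 log2, against 9.05 and 8.90, and did not pass (0.46 ± 0.10, adjusted p = 0.0567). Lpin1, a phosphatidate phosphatase, was lower at 10.00 and 9.75 log2, against 10.38 and 10.40, and did not pass either (-0.52 ± 0.12, adjusted p = 0.0633). In all, 14 of the 33 genes rose with phenylephrine, 1 fell and 18 did not pass, beside 2.36% of all 14217 genes called lower. Both phenylephrine arrays were below both control arrays in 3 of the 33, Scap, Abca1 and Lpin1, and in 24.9% of all genes.

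**Figure D2:**
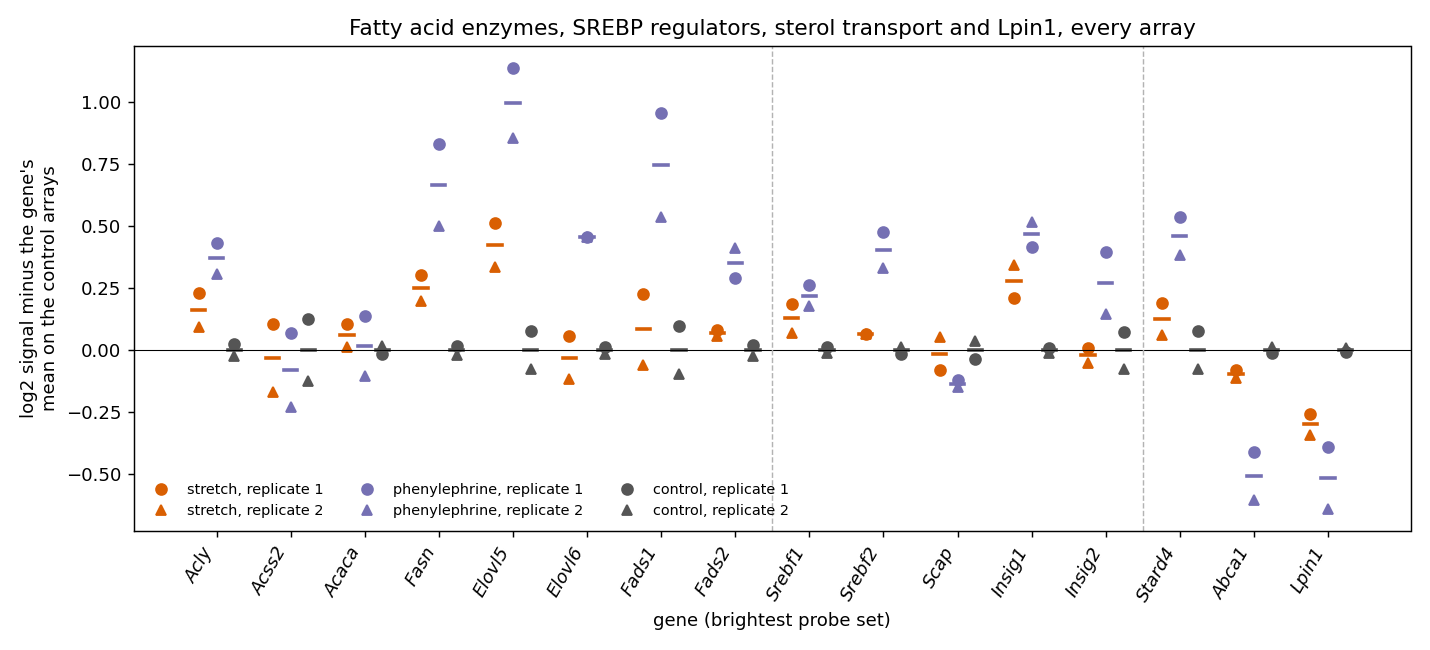
Log2 signal of the 8 fatty acid enzymes, the 5 regulators and Stard4, Abca1 and Lpin1 on every array, minus the gene's mean on the 2 control arrays (vertical axis, log2), with dashed lines between these groups of genes. Circles are replicate 1, triangles replicate 2 and short bars group means. Elovl5 has the highest phenylephrine mean at 0.99, Acss2 and Acaca overlap in all groups, and Abca1 and Lpin1 lie below control.

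Of a list of 37 further genes of sterol and lipid handling, 30 were measured, and 2 rose with phenylephrine and 0 fell, beside 2.41% of all 14217 genes called higher. Their median change was 0.036 log2. Tmem97, a sterol-binding protein of the endoplasmic reticulum that SREBP drives, was at 11.18 and 10.95 log2, against 10.02 and 9.95 in control (1.08 ± 0.12, adjusted p = 0.00458). Scd, the desaturase that makes oleate, was at 8.79 and 8.93 log2, against 8.17 and 8.30 (0.62 ± 0.082, adjusted p = 0.00875). Of 20 genes of fatty acid oxidation, 4 fell and 0 rose, beside 2.36% of all genes called lower, and the median change was -0.34 log2. Pdk4, a kinase of the pyruvate dehydrogenase complex, was at -1.04 ± 0.14, adjusted p = 0.00978. Cpt1a, the carnitine transferase that admits fatty acids, was at -0.70 ± 0.12, adjusted p = 0.0202. Cpt2 (-0.58 ± 0.12, adjusted p = 0.0479) and Decr1 (-0.56 ± 0.11, adjusted p = 0.0321) also fell.

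Markers of other cells moved in the same comparison. Among all 14217 genes 2.36% were called lower and 2.41% higher, and 24.9% lay below control without overlap. Of 9 fibroblast markers, 4 fell with phenylephrine and 0 rose, and both phenylephrine arrays were below both control arrays for all 9. Their summed signal was 14.89 to 14.95 log2 with phenylephrine, against 15.39 to 15.42 in control. Of 7 endothelial markers 2 fell (summed signal 11.50 to 11.60 log2, against 11.87 on both control arrays), and of 7 macrophage markers 1 fell (12.65 to 12.72, against 13.03 to 13.06). Smooth muscle and pericyte markers were split. Of 6, Cspg4 and Mcam rose, while Myh11 (-0.17), Rgs5 (-0.13) and Pdgfrb (-0.15) did not pass. These last 3 lay below control without overlap, as did 24.9% of all genes. The summed signal of the 6 (14.13 to 14.25, against 13.72 to 13.77) was mostly that of Des, at 13.40 to 13.91 log2 on these arrays. Among 6 adipocyte markers Fabp4 fell, and the defining genes Adipoq and Plin1 were dim on all arrays, at 7.53 to 7.80 log2. The 7 heart muscle markers had 1 rise, that of Nppa (summed signal 17.10 to 17.24 log2, against 16.84 to 16.95). The part of these shifts in the result was not tested.

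Stretch gave no call in these genes in the main fit. Of the 33 genes, 0 passed in limma for stretch against control, and 10 had an unadjusted p under 0.05, against 0.345% of all probe sets called and 7.24% of all 14217 genes at that unadjusted level. A fit with a replicate block called 5 of them higher, which the last section names, but no label says that equal numbers mark a shared batch. The sterol enzymes had a median change of 0.22 log2, with 16 of 17 above 0, against 51.8% of all genes above 0. Both stretch arrays were above both control arrays in 13 of the 17, a pattern seen in 21.6% of all genes. The largest change was that of Idi1, at 11.37 and 11.13 log2 with stretch, against 10.87 and 10.38 in control (0.63 ± 0.21, adjusted p = 0.609), with an interval of 0.15 to 1.10. For Sqle the values were 11.11 and 10.95 log2 with stretch and 10.86 and 10.75 in control, with an interval of -0.066 to 0.52. Dhcr7 was at 10.13 and 10.00 log2, against 9.83 and 9.75, with an interval of 0.014 to 0.54. The groups did not overlap in any of these 3 genes, and a change of 1 log2 lay above the interval for Sqle and Dhcr7 but within it for Idi1.

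The fatty acid enzymes had a median change of 0.076 log2 with stretch. Without stretch replicate 1 this median was 0.035 log2, without stretch replicate 2 it was 0.17 and without control replicate 1 it was 0.14. The sterol median ranged from 0.15 to 0.29 log2 over the 6 omissions, so the ranges of these medians overlapped. Both medians moved together, and within each omission of a stretch or control array the sterol median was the higher. Leaving out a phenylephrine array cannot alter these medians. It was 0.15 against 0.035 without stretch replicate 1 and 0.29 against 0.17 without stretch replicate 2. Elovl5 had the largest value, at 10.83 and 10.66 log2 with stretch, against 10.40 and 10.25 in control (0.42 ± 0.14, adjusted p = 0.619). Fasn had 0.25 ± 0.14, adjusted p = 1, Acly 0.16 ± 0.11, adjusted p = 1 and Acaca 0.06 ± 0.11, adjusted p = 1, none of which passed. Among the regulators, Insig1 was at 11.42 and 11.55 log2, against 11.22 and 11.20 in control (0.28 ± 0.11, adjusted p = 0.856), without overlap. Srebf1 had 0.13 ± 0.10, Srebf2 0.065 ± 0.11, Scap -0.014 ± 0.10 and Insig2 -0.02 ± 0.12. Lpin1 was lower in both stretch arrays, at 10.14 and 10.05 log2, against 10.38 and 10.40 (-0.30 ± 0.12, adjusted p = 0.813), and Abca1 was at 9.04 and 9.01, against 9.11 and 9.14 (-0.10 ± 0.089, adjusted p = 1). These were the 2 of 33 genes with both stretch arrays below both control arrays, against 19.4% of all genes. With stretch, limma called 0 of the 9 fibroblast markers, of which 4 had an unadjusted p under 0.05, and all 9 were below control without overlap, with a summed signal of 15.11 to 15.17 log2, against 15.39 to 15.42 in control. Their part in the result was not tested.

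**Figure D3:**
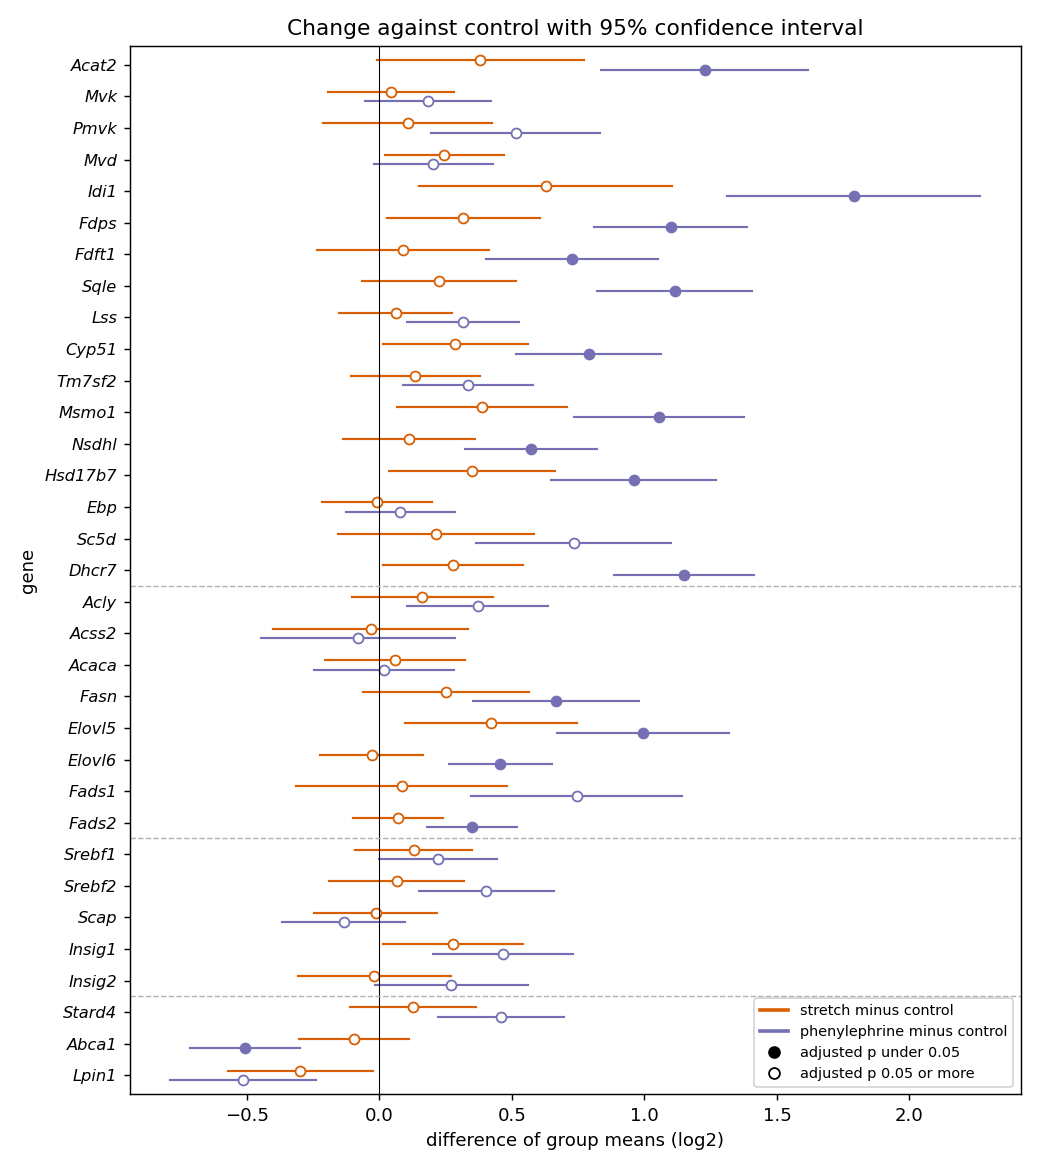
Differences of group means against control for 33 genes (horizontal axis, log2) with 95% confidence intervals, for stretch (upper line of each gene) and phenylephrine (lower line). Filled points passed an adjusted p of 0.05 and open points did not. All filled points belong to phenylephrine, 14 above 0 and Abca1 below it.

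Stretch arrays were also set against phenylephrine arrays. The sources used here give no growth surface, time without serum or treatment length for the phenylephrine cells. The stimulus therefore cannot be told apart from a difference in these. Of the 33 genes, 5 were lower with stretch, 0 were higher and 28 did not pass, against 0.837% of the 14217 genes called lower and 1.33% of all probe sets called in either direction. The 5 were the sterol enzymes Idi1, Fdps, Sqle and Dhcr7 and the elongase Elovl6. Among dimmer probe sets, 1 each of Sc5d (-0.90 ± 0.11, adjusted p = 0.014) and Cyp51 (-0.89 ± 0.16, adjusted p = 0.043) passed as lower, though their brightest did not. The dimmer probe set of Idi1 passed (-1.14 ± 0.18, adjusted p = 0.0327), and that of Elovl6 did not (-0.33 ± 0.072, adjusted p = 0.0868). Idi1 was at 11.37 and 11.13 log2 with stretch, against 12.63 and 12.19 with phenylephrine (-1.16 ± 0.21, adjusted p = 0.0432). Dhcr7 was at 10.13 and 10.00 log2, against 11.02 and 10.86 (-0.87 ± 0.11, adjusted p = 0.016). Neither gene overlapped between the stimuli.

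Sqle was at 11.11 and 10.95 log2 with stretch and 12.01 and 11.82 with phenylephrine (-0.89 ± 0.13, adjusted p = 0.0206). Fdps was at 12.82 and 12.87 log2 with stretch, against 13.71 and 13.53 with phenylephrine (-0.78 ± 0.12, adjusted p = 0.0315). Elovl6 was at 8.72 and 8.55 log2 with stretch, against 9.12 and 9.12 (-0.49 ± 0.084, adjusted p = 0.0402). In 16 of 17 sterol enzymes both stretch arrays were below both phenylephrine arrays, against 17.7% of all genes. The exception was Mvd, at 9.69 and 9.55 log2 with stretch, against 9.63 and 9.53 with phenylephrine, with an interval of -0.18 to 0.27 for the difference. Among the fatty acid enzymes 6 of 8 did not overlap, and Acss2 and Acaca did, with intervals of -0.32 to 0.42 and -0.22 to 0.31. Both stretch arrays lay between both control and both phenylephrine arrays in 18 of the 33 genes, 12 of them sterol enzymes, and in 568 of all 14217 genes (4.0%). Outside the 33, Tmem97 (-0.94 ± 0.12, adjusted p = 0.014) and Scd (-0.48 ± 0.082, adjusted p = 0.0381) were also lower with stretch, the 2 of 30 further pathway genes that passed. Of 20 fatty acid oxidation genes limma called 0, and their median difference was 0.24 log2, beside 0.0086 over all 14217 genes. Among the markers of other cells, Fabp4 (1.09 log2) and the endothelial Kdr (0.80) were higher with stretch and the pericyte genes Cspg4 (-0.79) and Mcam (-0.67) lower. Of the same smooth muscle and pericyte list, Myh11 (0.19), Rgs5 (0.063) and Pdgfrb (0.10) were higher with stretch without overlap and did not pass. Limma called 0 of 9 fibroblast markers, with a median difference of 0.17 log2, beside 0.0086 over all 14217 genes. The part of all these markers in the difference was not tested.

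**Figure D4:**
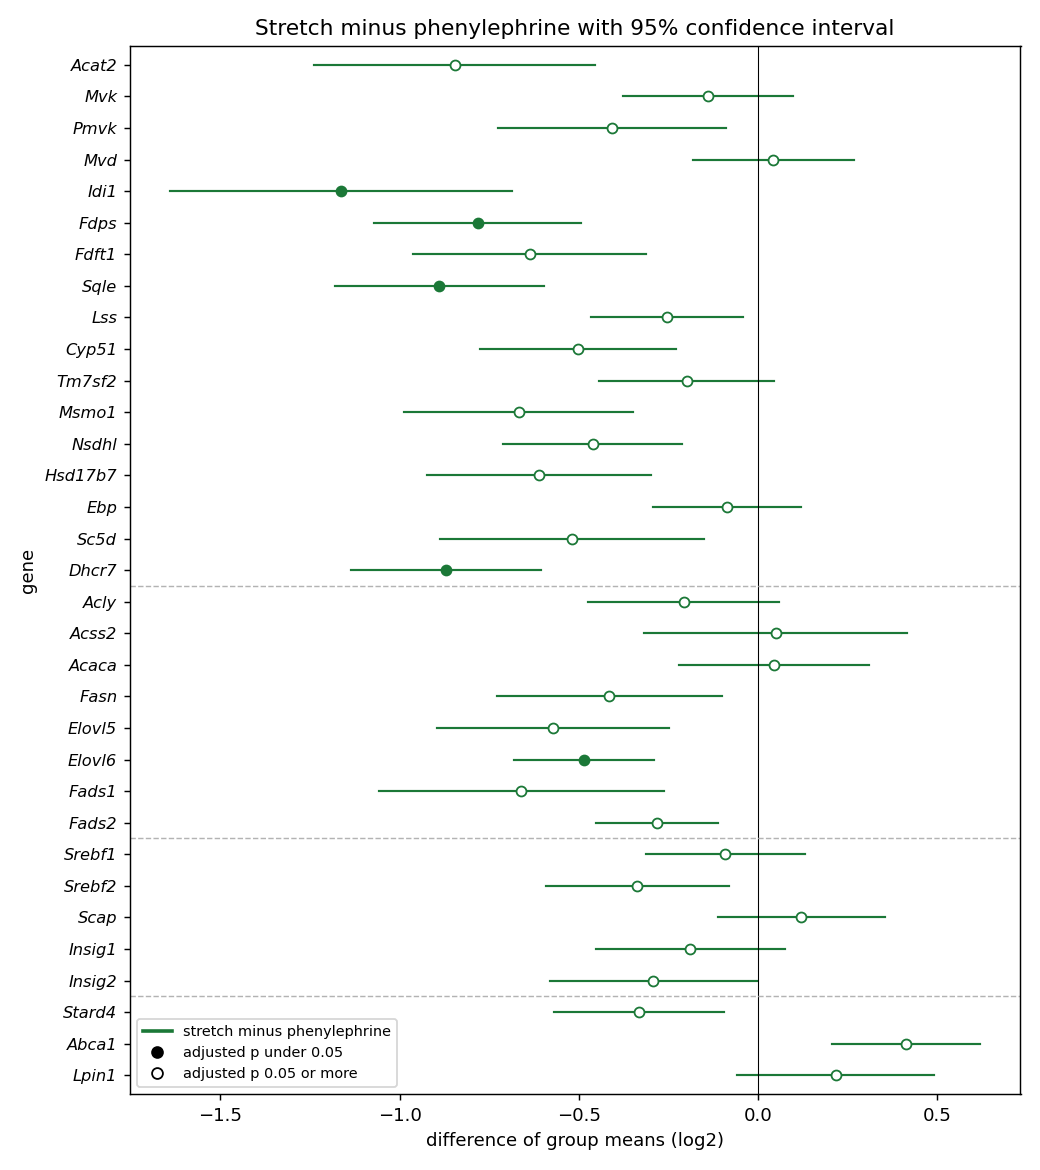
Stretch minus phenylephrine for 33 genes (horizontal axis, difference of group means in log2) with 95% confidence intervals. Filled points passed an adjusted p of 0.05. Idi1, Fdps, Sqle, Dhcr7 and Elovl6 are filled and lie between -1.16 and -0.49, and Abca1 has the highest open point at 0.41.

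The counts depended on single arrays. For phenylephrine against control, the 15 calls among the 33 genes became 6 without control replicate 1, 3 without control replicate 2, 10 without either stretch array, 12 without phenylephrine replicate 1 and 14 without phenylephrine replicate 2. Of the 12 and of the 14, 11 each were among the 15. Idi1, Fdps and Dhcr7 passed in each of these 6 omissions, with changes of 1.54 to 2.03, 0.97 to 1.23 and 1.07 to 1.22 log2. Nsdhl passed in 0 of the 6, Fdft1, Fasn, Fads2 and Abca1 in 1 each, and Elovl6 in 2, while the signs of these 6 genes held. The 5 calls of stretch against phenylephrine became 0 without either stretch array, 3 without either control array and 2 without phenylephrine replicate 2. Without phenylephrine replicate 1, Sqle and Dhcr7 passed as lower and Abca1 as higher with stretch, which had not passed before. Over the omissions, the 5 genes stayed lower with stretch, although Elovl6 passed in 0 of the 6. For stretch against control the count was 0 in each of the 6 omissions, and 0 to 5 under the other settings.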

How the data were processed

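The deposited values are log2 signals per probe set, and the sources used here name neither the software nor the normalization behind them. That the scale is log2 was read from the values, and array medians lay within 0.04 of each other. Per the labels' protocols, RNA was amplified by in vitro transcription and labelled with biotin. Of 31099 probe sets, 57 array controls were left out and 31042 tested. GEO's platform annotation gave 20826 of them 1 gene symbol, 436 several and 9780 none. Genes were tested with limma 3.58.1 in R 4.3.3 (lmFit, eBayes with a mean-variance trend, all 6 arrays, 3 residual and 4.8 prior degrees of freedom), two-sided, with Benjamini-Hochberg adjustment. With 2 arrays on each side, exact permutation reaches p = 0.333 at the lowest. The fit was tested on simulated data. Precision is limited by the small number of arrays.

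The members and gene lists were chosen with earlier results of these data known. All 34 members are accounted for, with full statistics for those past the threshold, the markers Idi1, Sqle and Dhcr7, the regulators and the entry enzymes. Of the further pathway and oxidation genes, up to 4 per comparison past the threshold are named. Likeness of other genes over the arrays is not given, since the 6 arrays fall into groups. Promoter windows are those of RefSeq, GRCr8, and motifs are descriptions. Alternatives were quantile normalization, a replicate block, no trend, a filter on dim probe sets, the mean over a gene's probe sets, only the 4 arrays compared, and leaving out each array.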

Additional observations from a re-analysis of the deposited data

How the results depend on the processing

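For phenylephrine against control, the 15 calls among 33 genes became 24 with quantile normalization, 9 with only the 4 arrays compared, and 3 to 14 without 1 array. The 1117 calls among all probe sets became 2790 and 661 under the first 2 of these settings and 189 to 1249 without 1 array. For stretch against phenylephrine, the 5 calls became 20 with quantile normalization, 8 with the mean over a gene's probe sets and 0 to 3 without 1 array, and the 413 calls of all probe sets became 1527 with quantile normalization, 230 with only the 4 arrays compared and 51 to 473 without 1 array. For stretch against control, the 0 calls became 1 with quantile normalization and 0 without any 1 array, while the 107 calls of all probe sets (95 higher and 12 lower) became 386 (280 higher and 106 lower) with quantile normalization and 26 to 112 without 1 array. With a replicate block, the member counts were 27, 22 and 5 for these comparisons in the same order, and those of all probe sets 5384, 3734 and 1028. The 5 for stretch against control were Idi1 (adjusted p = 0.00189 in limma with the block), Elovl5 (0.0119), Acat2 (0.0262), Hsd17b7 (0.0282) and Msmo1 (0.0463), all higher with stretch. The labels do not say that equal numbers mark a shared batch, and each comparison has only 2 pairs, although deviations of same-numbered arrays correlated at 0.67 for stretch and control, 0.49 for phenylephrine and control and 0.53 for stretch and phenylephrine. Signs under these settings were followed only for the members given full statistics, and among these the changes that turned sign were small and uncalled. For the other members, turns of sign were not followed. For stretch against control, the mean over probe sets gave Elovl6 0.022, and for stretch against phenylephrine Acaca was -0.022 with quantile normalization and -0.0039 with the mean over probe sets. Without 1 array, the change of stretch against control ranged from -0.0089 to 0.19 for Fdft1, -0.079 to 0.052 for Scap, -0.094 to 0.054 for Insig2, -0.12 to 0.056 for Elovl6, and that of Acaca from -0.10 to 0.14 for phenylephrine against control and from -0.077 to 0.16 for stretch against phenylephrine. The cause of these differences was not tested.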
